A study of Mus musculus with 24 samples.

Results

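The genes described here encode the complexes of the mitochondrial respiratory chain and the ATP synthase, and they were followed in livers and hearts of mice with and without the nuclear receptor PPARα. Members were all genes on the array whose symbol begins with Nduf, Uqcr, Atp5 or Cox followed by a digit from 4 to 8, together with Sdha, Sdhb, Sdhc, Sdhd and Cyc1. This gave 91 of the 18193 genes measured. They comprised 34 subunits of complex I, 8 complex I assembly factors (symbols beginning with Ndufaf), 4 subunits of complex II, 9 of complex III, 19 of complex IV and 17 of the ATP synthase. Ndufa4, whose product is known as a subunit of complex IV, and its paralogue Ndufa4l2 were counted there. A further 8 matching symbols (Ndufa11, Ndufa11b, Ndufab1-ps, Ndufb4b, Ndufb4c, Ndufs5-ps, Ndufs6 and Ndufs6b) occurred only on probe sets shared by several genes and were not analysed here.

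The respiratory chain passes electrons from NADH (complex I) and succinate (complex II) by way of ubiquinone to complex III, cytochrome c and complex IV, which reduces oxygen. Complexes I, III and IV pump protons, and the ATP synthase uses the resulting gradient to make ATP. Fatty acid oxidation adds electrons through NADH and through the electron transfer flavoprotein, which hands them to ubiquinone. PPARα is a fatty acid receptor that raises transcription of genes for fatty acid oxidation in liver and heart, tissues rich in mitochondria.

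Wild-type (WT) and Ppara knockout (KO) mice were on the SV129 background, 10 to 12 weeks old, and were killed at zeitgeber time 14. There were 12 animals of each sex and genotype, and each array carried RNA from a pool of 4, and 3 pools made up each of the 8 groups. Pools 1 to 3 were WT males, 4 to 6 KO males, 7 to 9 WT females and 10 to 12 KO females, in liver and again in heart. The labels name no treatment and no cell type restriction of the knockout, and whether the liver and heart pools of one number came from the same animals was not stated. The 24 arrays reported log2 intensities, and a difference of 1 on this scale is a 2-fold change.

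Ppara itself, the check of the labels, was lower in KO in every comparison, by 1.05 (log2) in female liver, 1.12 in male liver, 1.53 in female heart and 1.25 in male heart. Hepatocyte markers (9 genes) had medians of 12.26 to 12.82 on the liver arrays, and cardiomyocyte markers (10 genes) 12.89 to 13.03 on the heart arrays. The heart array labelled male KO pool 4 read 6.62 for Xist, an RNA of the inactive X chromosome, against 2.80 to 3.12 on the other male heart arrays. Its skeletal muscle markers (13 genes) had a median of 5.17, against 3.01 to 3.47 on the other hearts. The heart array labelled female KO pool 10 read 3.34 for the Y-linked Eif2s3y, against 1.96 to 2.50 on the other female hearts. In liver Eif2s3y read 3.43, 3.08 and 4.46 in KO males and 4.73 to 5.18 in WT males, without overlap. Smooth muscle markers (5 genes) had medians of 5.91 to 6.25 in female KO hearts and 6.53 to 6.66 in female WT hearts. Results in heart are therefore also given without pools 4 and 10. The part of these differences in the results below was not tested. In whole tissue, fewer cells of a type and less RNA per cell cannot be told apart.

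The proximal promoters of 3 genes are shown because they are the genes on which the results turn: Cox6b2, the member that fell in KO liver, Cox6b1, the common isoform of the same subunit, and Etfdh, an electron entry gene that fell in both tissues and both sexes. Each is the 250 bases before the annotated start, 5′ to 3′ on the gene's strand, from RefSeq (GRCm38.p6). The stretches are chr7:4753095-4753344 (minus strand) for Cox6b2, chr7:30626115-30626364 (minus strand) for Cox6b1 and chr3:79628768-79629017 (minus strand) for Etfdh. Capitals mark every match, on either strand, to 5 motifs linked to promoters of mitochondrial genes or to PPARα.

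Cox6b2: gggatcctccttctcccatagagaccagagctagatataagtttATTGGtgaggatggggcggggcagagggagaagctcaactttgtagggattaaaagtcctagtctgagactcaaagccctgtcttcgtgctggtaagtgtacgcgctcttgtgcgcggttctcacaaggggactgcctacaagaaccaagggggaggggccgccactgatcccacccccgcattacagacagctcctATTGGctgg

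Cox6b1: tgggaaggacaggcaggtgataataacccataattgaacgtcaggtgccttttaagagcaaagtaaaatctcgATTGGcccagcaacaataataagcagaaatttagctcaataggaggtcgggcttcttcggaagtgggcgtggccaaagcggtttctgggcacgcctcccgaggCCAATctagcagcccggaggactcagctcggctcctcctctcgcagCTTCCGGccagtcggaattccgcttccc

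Etfdh: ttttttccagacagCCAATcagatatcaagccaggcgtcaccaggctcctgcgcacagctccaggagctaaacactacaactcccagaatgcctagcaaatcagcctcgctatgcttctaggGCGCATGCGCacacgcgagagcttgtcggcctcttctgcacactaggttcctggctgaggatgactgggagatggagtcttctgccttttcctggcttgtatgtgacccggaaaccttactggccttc

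The motifs, searched on both strands, were the ETS core CCGGAAG, the NRF1 motif (GCGCA and GCGC with 1 base between), the YY1 motif AAGATGGC, the CCAAT box, and the direct repeat DR1 (AGGNCA repeated with 1 base between), a form of the element bound by PPARα with its partner RXR. Promoter windows of 300 bases (250 before and 50 after the start) were found for 74 of the 91 members, in 79 windows. The ETS core was in 24.1% of the members' windows and in 8.86% of all 32851 windows of the same length. The NRF1 motif was in 22.8% against 4.6%, the YY1 motif in 12.7% against 2.75%, and the CCAAT box in 41.8% against 37.4%. DR1 was in 0 of the 79 windows and in 0.381% of all windows. In the sequences above, Cox6b2 matched only the CCAAT box, Cox6b1 the ETS core and the CCAAT box, and Etfdh the NRF1 motif and the CCAAT box. A match is a run of letters and not a measured site, and the absence of one in this window says nothing of more distant elements.

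Most members lay well above the median of the arrays. A gene was called dim when its mean in a tissue was less than 1 log2 unit above the median of all probe sets, that is below 3.45 in liver or 4.03 in heart. By this limit 11 of the 91 members were dim in liver and 5 in heart, against 67.3% and 59.2% of all genes. The dim members in liver included the heart and muscle isoforms of complex IV, Cox6a2, Cox7a1 and Cox8b, which had liver means of 3.29, 2.44 and 2.82 and heart means of 11.62, 11.06 and 11.32. Cox4i2, the lung-enriched isoform of subunit IV, Cox7b2, Cox7c and Ndufb4 were dim in both tissues, so that for these members the array could hardly show a fall. The values of the 2 tissues were on different scales (the median of all probe sets was 2.45 in liver and 3.03 in heart), and no fold between tissues was computed.

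In liver 1 member was called in each sex, a share near that of all genes. Cox6b2, which encodes the isoform of complex IV subunit VIb known from testis, fell in KO livers of both sexes. In female liver 1 of 91 members passed an adjusted p of 0.05 (0 higher, 1 lower), where 0.813% of all genes did, and 6 of 91 passed an unadjusted p of 0.05 (6.87% of all genes). In male liver the count was again 1 of 91, against 0.605% of all genes, with 4 of 91 unadjusted (8.75%). Cox6b2 was that member in each sex. In heart 0 of 91 passed in females (0.533% of all genes) and 0 of 91 in males (0.401%), and at an unadjusted p of 0.05 in the same limma fits 2 of 91 members did in each sex (6.85% and 6.58% of all genes).

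Cox6b2 read 4.24, 4.93 and 3.88 in the 3 pools of WT female livers and 2.73, 2.66 and 2.79 in KO. In males the WT livers read 4.36, 4.09 and 4.40 and the KO livers 3.12, 2.56 and 2.96. Every KO liver lay below every WT liver, in both sexes, with no overlap. The fall was 1.62 in females (SE 0.214, 95% interval -2.09 to -1.16), a 3.08-fold lower signal, with an adjusted p of 0.00155 in limma. In males it was 1.40 (interval -1.86 to -0.94), a 2.64-fold lower signal, with an adjusted p of 0.0072 in limma. The female call was lost when only the 6 compared arrays were fitted (adjusted p 0.0545), and the male call without WT pool 1 (0.0501) or KO pool 5 (0.0502), with falls of 1.62, 1.36 and 1.24. Averaged over the sexes the fall was 1.51 (interval -1.84 to -1.18, adjusted p 9.25e-05 in limma). It was the 19th largest by size among the 82 genes called lower in female liver and the 17th of 79 in males. The KO values lay close to the liver median of 2.45, so a larger fall could hardly have been measured. Cox6b2 was measured by 1 probe set.

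**Figure D1:**
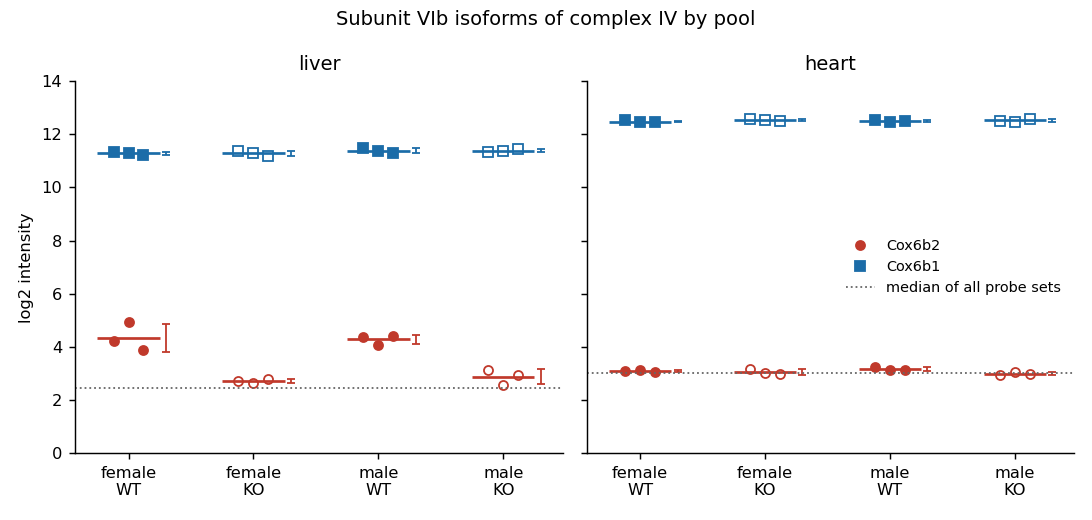
Log2 intensity of Cox6b2 (red circles) and Cox6b1 (blue squares) in each pool of liver (left) and heart (right), filled for WT and open for KO, with group means as bars, SD (n = 3) as error bars and the median of all probe sets dotted. Cox6b2 in liver drops from 3.88 to 4.93 in WT to 2.56 to 3.12 in KO, while Cox6b1 stays between 11.17 and 11.49.

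Cox6b1, the isoform of the same subunit found in most tissues, read between 11.17 and 11.49 on all 12 liver arrays. Its KO and WT pools overlapped, with a difference of -0.00015 averaged over the sexes (interval -0.12 to 0.12). In heart it read 12.45 to 12.58 and differed by 0.035 (interval -0.08 to 0.15). The interval in each tissue excluded a change of Cox6b1 by as much as Cox6b2 changed in liver. The 10 measured genes that lie nearest to Cox6b2 in the genome (Ppp6r1, Hspbp1, Brsk1, Tmem150b, Kmt5c, Il11, Tmem190, Tmem238, Ube2s and Shisa7) were called in neither sex in liver, with differences between -0.33 (Kmt5c, males) and 0.31 (Shisa7, males). Brsk1, Tmem150b, Kmt5c, Il11, Tmem190 and Shisa7 were dim in liver (means of 2.28 to 3.17), so a fall of these could hardly have been seen. Ppp6r1, Hspbp1, Tmem238 and Ube2s, with liver means of 4.01 to 6.07, differed by -0.29 (Tmem238, females) to 0.27 (Ppp6r1, males).

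In heart Cox6b2 sat near the array median in both genotypes. WT hearts read 3.11, 3.13 and 3.06 in females and 3.24, 3.15 and 3.12 in males. KO hearts read 3.17, 3.01 and 3.00 in females and 2.96, 3.07 and 2.98 in males. The male groups did not overlap and the female groups did, and neither difference passed the test (-0.04 in females, adjusted p 0.981, and -0.17 in males, adjusted p 0.78, limma). With the heart median at 3.03 there was little room for a fall to be seen.

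The test of liver against heart asked whether the KO effect differed between the tissues. Of the 91 members 1 passed in females (0.698% of all genes) and 1 in males (0.517%), Cox6b2 in each, with 6 of 91 (7.42%) and 5 of 91 (7.77%) at an unadjusted p of 0.05. Taken as liver less heart, its KO differences stood apart by -1.58 in females (interval -2.07 to -1.09, adjusted p 0.000449 in limma) and -1.23 in males (interval -1.72 to -0.75, adjusted p 0.00902). Cox6b2 was dim in heart in both genotypes, so a fall there could hardly have been seen, and these values largely restate the fall in liver and do not show a different response in heart. The sexes were compared in the same way. In liver 0 of 91 members differed between the sexes in their KO effect (0.066% of all genes, and 1 of 91 at an unadjusted p of 0.05, 4.78% of all genes), and in heart 0 of 91 (0% of all genes, and 1 of 91 unadjusted, 4.51%), in limma. For Cox6b2 in liver the female difference less the male one was -0.22, with an interval of -0.88 to 0.43 that leaves room for a sizeable difference between the sexes.

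To bound the differences of the other members, a band of 0.5 log2 units on either side of 0 (1.41-fold) was used, and a gene was counted when its whole 95% interval lay inside. In the average of both sexes this held for 89 of 91 members in liver (94.5% of all genes) and for 91 of 91 in heart (98.1%). Among members that were not dim, where a fall could be read, it held for 78 of 80 in liver and 86 of 86 in heart. The share over all genes that were not dim is not given here. Members varied less than all genes, with a median SD of 0.099 against 0.129 in liver and 0.067 against 0.128 in heart. Their intervals were narrower for that reason, so these counts bound the members and do not set them apart from other genes. The liver exceptions were Cox6b2 and Ndufaf1. In the single sexes the counts were 85 of 91 in female liver (86.2% of all genes), 85 in male liver (84.7%), 91 in female heart (92.7%) and 91 in male heart (93%). Averaged over the sexes, 1 of 91 members was called in liver (Cox6b2, 1.36% of all genes) and 0 of 91 in heart (0.885%). At an unadjusted p of 0.05 the same limma fits gave 5 members in liver (10.5% of all genes) and 2 in heart (7.81%). Without Cox6b2, the liver differences ran from -0.25 (Ndufaf1) to 0.17 (Cox8b) and the heart differences from -0.205 (Ndufa3) to 0.13 (Ndufaf6).

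**Figure D2:**
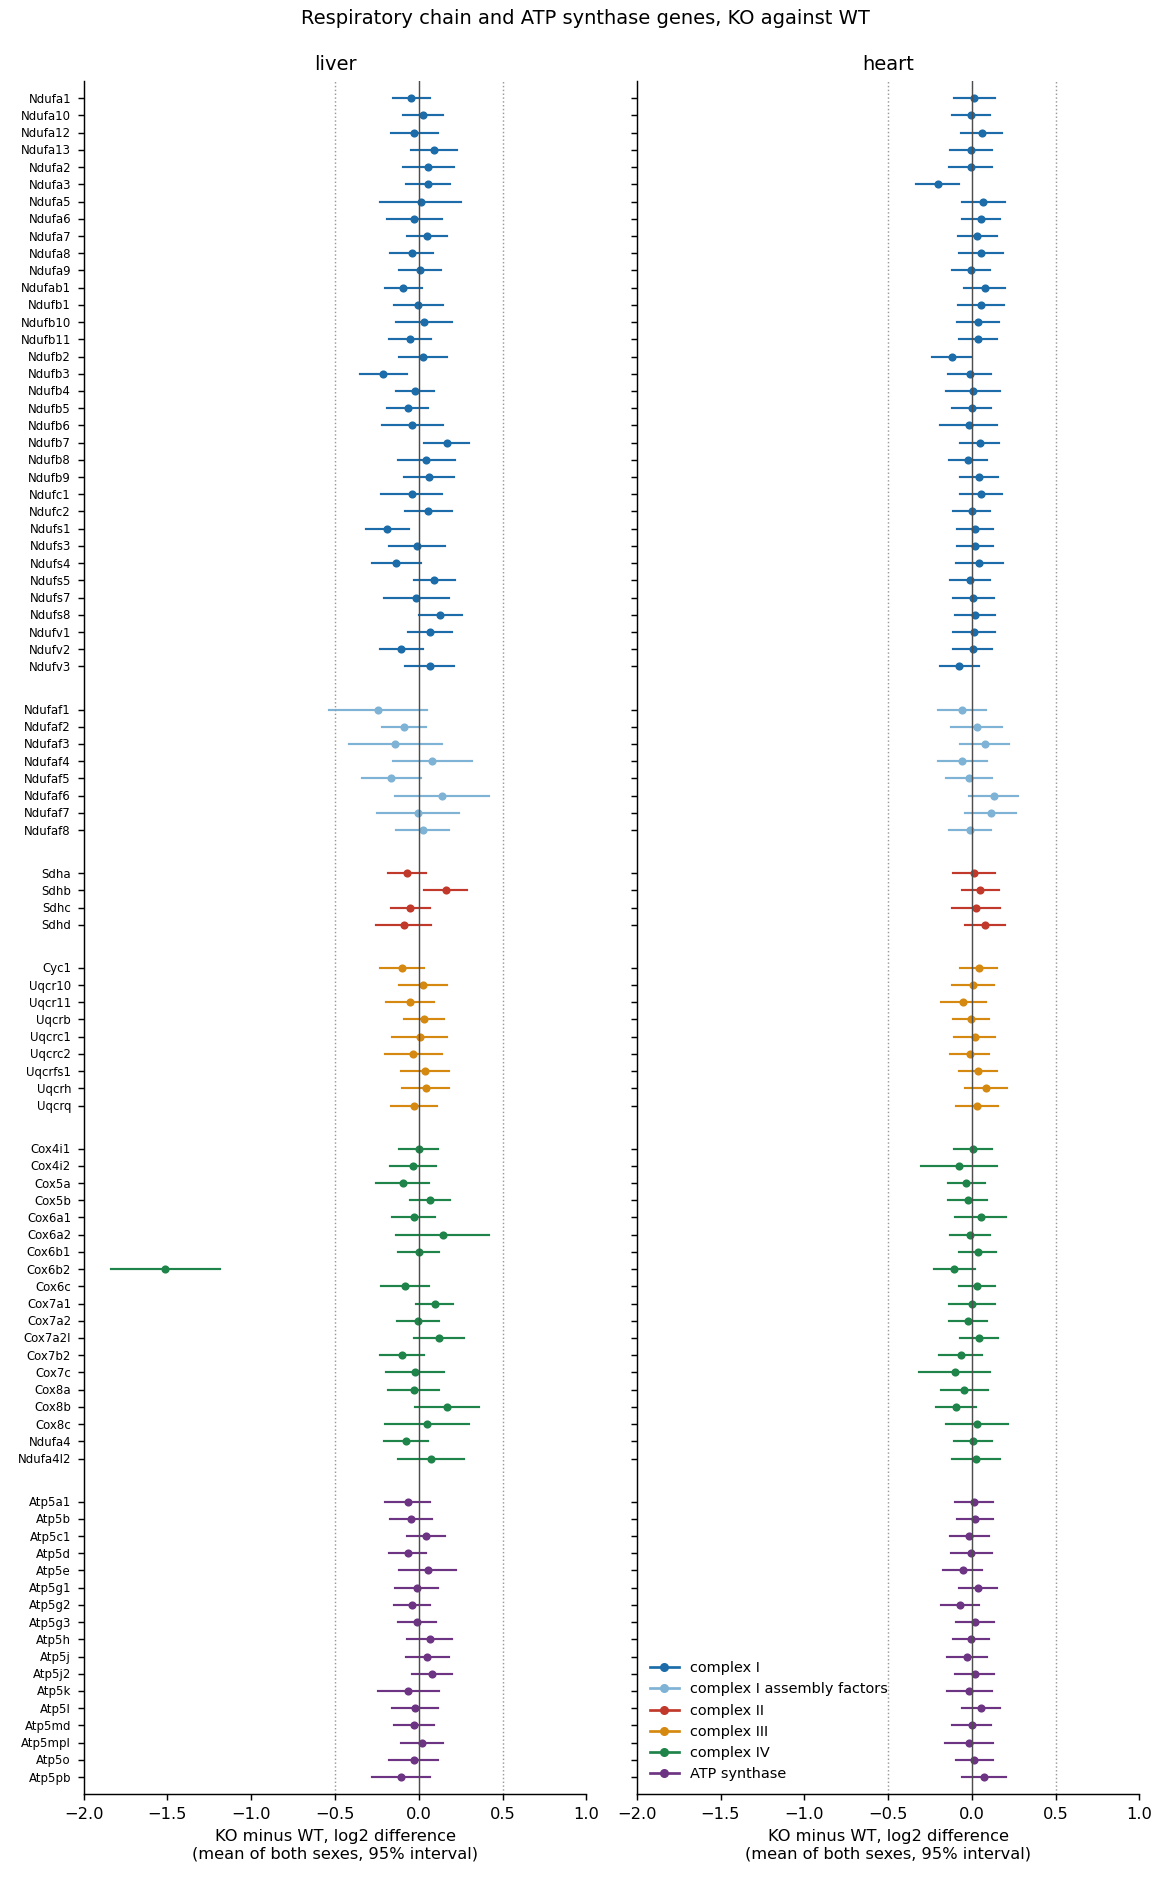
KO minus WT log2 difference of each of the 91 members, averaged over the sexes, with its 95% interval from limma, in liver (left) and heart (right), grouped and coloured by complex, with dotted lines at -0.5 and 0.5. Cox6b2 in liver (-1.51) stands apart, the interval of Ndufaf1 in liver crosses a dotted line, and all 91 intervals in heart lie between the lines.

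Complex I oxidises NADH. Its 34 subunits had a median difference of 0.0022 in liver and 0.015 in heart, and 0 of 34 were called in either. Ndufs1, the largest iron-sulfur core subunit, read 8.26, 8.28 and 8.06 in WT male livers, 8.18, 8.04 and 7.96 in KO males, 8.19, 8.19 and 8.22 in WT females and 8.04, 7.96 and 7.91 in KO females. The female groups were apart and the male groups overlapped. The average difference was -0.19 (interval -0.32 to -0.06, adjusted p 0.233 in limma), and in heart it was 0.019. Ndufb3, an accessory subunit of the membrane arm, was the lowest of the complex in liver (-0.21, adjusted p 0.195 in limma) and Ndufb7, another accessory subunit, the highest (0.17, adjusted p 0.332).

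Ndufa3, an accessory subunit of the membrane arm, was the lowest member in heart. It read 11.49, 11.68 and 11.52 in WT males, 11.33, 11.40 and 11.28 in KO males, 11.54, 11.51 and 11.39 in WT females and 11.29, 11.40 and 11.20 in KO females. The male groups were apart and the female groups overlapped. The average difference of -0.205 did not pass (interval -0.34 to -0.07, adjusted p 0.239 in limma). With a trended and robust variance it did (adjusted p 0.00579), at the same size, and its adjusted p over all alternatives ran from there to 0.539. A second bright probe set of the gene gave -0.20, and the mean of all its probe sets gave a smaller -0.15 (adjusted p 0.301 in limma). Without heart pools 4 and 10 the difference was -0.20 as well. In liver Ndufa3 differed by 0.055.

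The 8 assembly factors, which build complex I and are not part of it, had the widest spread between liver pools of the 6 groups (median SD 0.224, against 0.101 for the subunits of complex I). Their median KO difference was 0.082 in female liver and -0.17 in male liver, with 5 of 8 above 0 in females and 1 of 8 in males, and 0 of 8 passed in either. Ndufaf1 in liver ranged from 4.30 (KO female pool 12) to 5.49 (WT male pool 1), and its average difference was -0.25 with an interval of -0.54 to 0.05.

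Complex II, succinate dehydrogenase, has 4 subunits. The flavoprotein Sdha differed by -0.07 in liver and 0.013 in heart. The iron-sulfur subunit Sdhb read 10.07, 10.00 and 9.98 in WT male livers and 10.18, 10.22 and 10.18 in KO males, and 9.95, 9.97 and 9.73 in WT females and 9.96, 10.13 and 9.99 in KO females. Its groups were apart in males and overlapped in females, and its average difference of 0.16 (interval 0.03 to 0.29) did not pass (adjusted p 0.324 in limma). The membrane anchors Sdhc and Sdhd differed by -0.05 and -0.09 in liver and by 0.025 and 0.08 in heart. In heart all 4 lay above 0, none of them called, with 2 of 91 members at an unadjusted p of 0.05 in that limma fit.

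Complex III passes electrons from ubiquinol to cytochrome c. Its 9 members had a median difference of 0.0061 in liver and 0.017 in heart. The haem subunit Cyc1 was the lowest in liver, at -0.10 (interval -0.23 to 0.03), and the iron-sulfur subunit Uqcrfs1 differed by 0.038. Uqcrh, the hinge subunit, was the highest in each tissue, at 0.041 in liver and 0.08 in heart. Both values for Uqcrh came from a probe set that can bind related transcripts. Without such probe sets they were 0.10 in liver and -0.0069 in heart.

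Complex IV, cytochrome c oxidase, is the group with tissue isoforms. Apart from Cox6b2, its members differed in liver by -0.10 (Cox7b2) to 0.17 (Cox8b), and in heart by -0.10 (Cox6b2 itself) to 0.053 (Cox6a1). The heart and muscle isoforms differed in heart, where they were bright, by -0.012 (Cox6a2), 0.0023 (Cox7a1) and -0.09 (Cox8b). The isoforms common to most tissues differed in liver by -0.031 (Cox6a1), -0.0056 (Cox7a2) and -0.031 (Cox8a). None of these differences passed the test. Cox4i1, the main form of the regulatory subunit IV, read 10.30 to 10.61 on the liver arrays and 12.34 to 12.50 on the heart arrays, and differed by -0.0017 and 0.0071. Ndufa4l2, a paralogue of Ndufa4 known to respond to hypoxia, was dim in liver and differed in heart by 0.025. Cox8c, like Cox6b2 and Cox7b2 an isoform known from testis, read 3.85 to 4.74 in liver and differed there by 0.048 (interval -0.20 to 0.30). Cox7b2 was at or below the array median in both tissues, so of the testis isoforms only Cox6b2 and Cox8c had liver levels at which a fall could be read.

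The ATP synthase had 17 members with a median difference of -0.025 in liver and -0.0022 in heart, and 0 of 17 passed in any comparison of KO with WT. The catalytic subunit Atp5b read 10.85 to 11.14 on the liver arrays and 12.43 to 12.59 on the heart arrays, with overlapping groups. It differed by -0.05 in liver and 0.020 in heart. Its partner in the catalytic head, Atp5a1, differed by -0.07 and 0.013. The 3 genes for the rotating c subunit, whose mature proteins are identical, differed in liver by -0.013 (Atp5g1), -0.04 (Atp5g2) and -0.011 (Atp5g3), and in heart by 0.036, -0.07 and 0.020. Atp5pb, a subunit of the peripheral stalk, was the lowest in liver (-0.11) and the highest in heart (0.07), and neither passed.

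**Figure D3:**
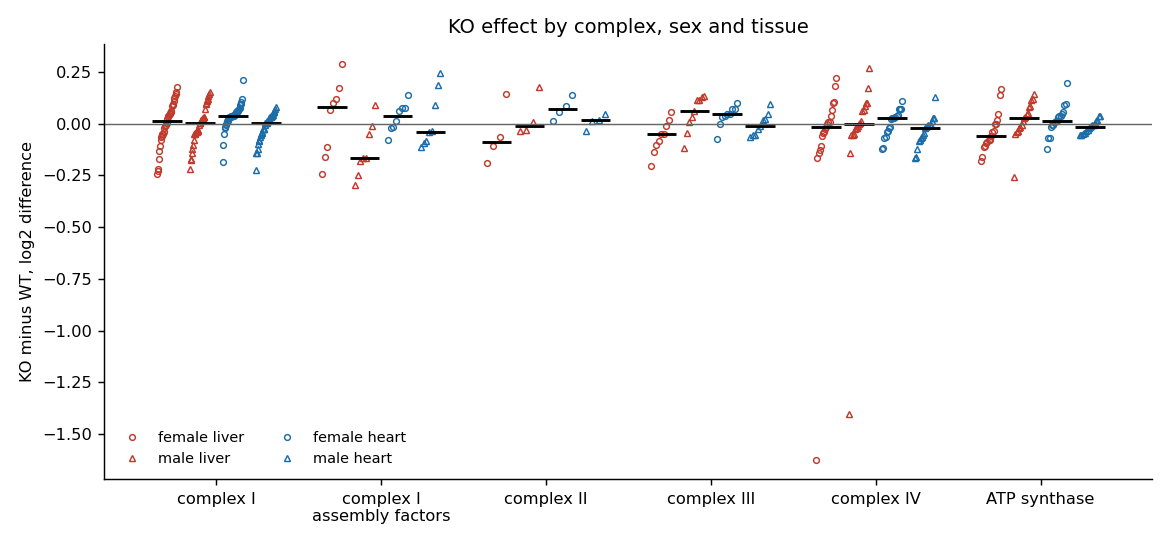
KO minus WT log2 difference of each member by complex in female and male liver (red) and female and male heart (blue), with the group median as a black bar. Apart from Cox6b2 in liver (-1.62 and -1.40) the points lie between -0.30 and 0.29, and medians of the groups range from -0.17 (assembly factors, male liver) to 0.08 (assembly factors, female liver).

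The median difference over the 91 members was -0.018 in female liver, 0.0023 in male liver, 0.035 in female heart and -0.013 in male heart, beside -0.0015, 0.011, -0.0053 and 0.0038 over all genes. Each array was also placed by the median deviation of the members from their tissue mean. Liver arrays ranged from -0.14 (female KO pool 12, with 78 of 91 members below the mean) to 0.09 (male WT pool 1), with a pooled SD within groups of 0.059. Heart arrays ranged from -0.08 (female WT pool 9, with 77 of 91 below) to 0.022, with a pooled SD of 0.028. Without liver pool 12 the female liver median changed sign, to 0.030, with 52 of 91 members above 0 in place of 39 (49.4% of all genes). Heart pool 9, a WT female pool, was the only heart array further from 0 than the female heart median of 0.035.

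**Figure D4:**
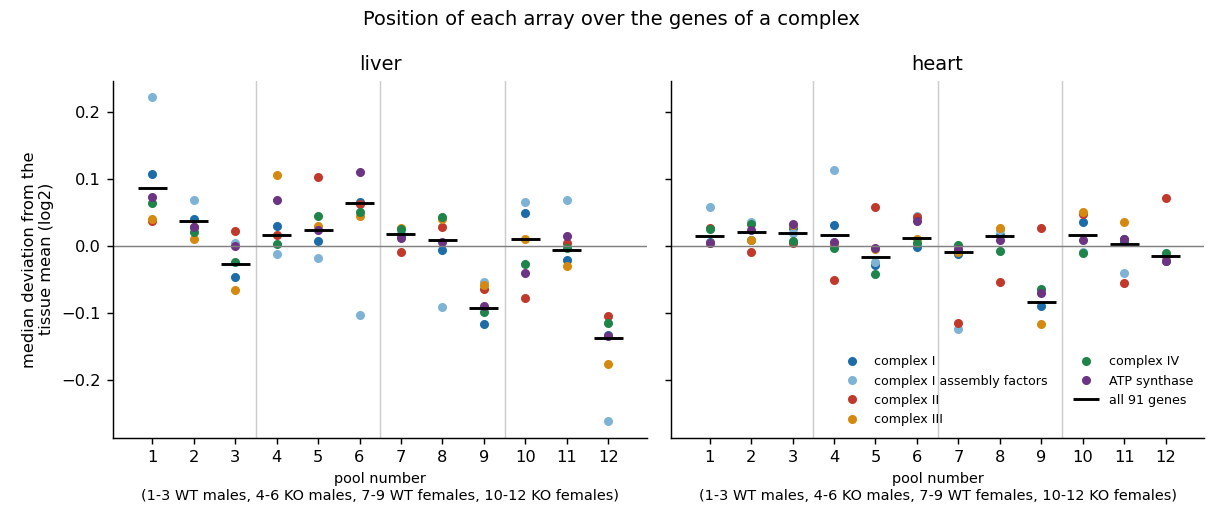
Median deviation (log2) of the genes of each complex (points) and of all 91 members (black bars) from their tissue mean on each array, by pool number in liver (left) and heart (right). The black bars reach -0.14 in liver pool 12 and -0.09 in liver pool 9 and stay between -0.08 and 0.022 in heart.

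Females and males were also compared without the knockout. In WT liver 0 of 91 members differed between the sexes (1.76% of all genes, and 4 of 91 members at an unadjusted p of 0.05, 12.3% of all genes), and in WT heart it was 0 of 91 (0.0275% of all genes, and 1 of 91 unadjusted, 6.18%), in limma. The members nevertheless leaned one way, with 61 of 91 lower in females in liver (median -0.05) and 74 of 91 in heart (median -0.044), while 52.8% and 50.5% of all genes were higher in females. Pool 9, a WT female pool that was low in both tissues, moved with this, and without it the medians were -0.022 in liver and -0.031 in heart. In liver WT male pool 1 (0.09, with 71 of 91 members above the tissue mean) moved the same way. Members moved together on some arrays, so these counts are not independent. In size the liver median was below the pooled SD within groups (0.059) and the heart median above it (0.028). Ndufa1 and Ndufb11, the X-linked members, differed between WT females and males in liver by -0.028 and 0.0029. Cox6b2 differed by 0.06 (interval -0.40 to 0.53) between WT females and males in liver.

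Some genes that feed electrons into the chain did fall. Of 21 measured genes for electron entry and mobile carriers, 2 fell in each sex and tissue and 0 rose, where 0.813% of all genes were called in female liver, 0.605% in male liver, 0.533% in female heart and 0.401% in male heart. In liver these were Etfdh, the oxidoreductase that passes electrons from the electron transfer flavoprotein to ubiquinone, and Etfb, the β subunit of that flavoprotein. In heart they were Etfdh and Coq3, a methyltransferase of ubiquinone synthesis. The median over the 21 genes was -0.06 in liver and -0.033 in heart, averaged over the sexes. These lists were drawn up with earlier results of the same arrays known, so their counts are a description.

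Etfdh read 8.58, 8.61 and 8.49 in WT female livers and 6.92, 6.76 and 6.85 in KO, and 8.19, 8.13 and 8.10 in WT male livers and 6.75, 6.34 and 6.52 in KO. No KO liver reached a WT liver. It fell by 1.72 in females (adjusted p 5.62e-07), and the male difference was -1.604 (adjusted p 1.53e-06, limma). In heart it read 10.33, 10.36 and 10.34 in WT females, 9.32, 9.43 and 9.25 in KO females, 10.27, 10.40 and 10.36 in WT males and 9.21, 9.32 and 9.25 in KO males, again without overlap. It fell by 1.01 in females and fell by 1.08 in males (adjusted p 3.8e-06 and 1.75e-06, limma). Averaging all probe sets of the gene gave smaller differences, of -0.84 in liver and -0.56 in heart, that also passed. These averages include the brightest probe set, so on average the gene's other probe sets changed less than it did. Values of those other probe sets alone are not given here. That the averages passed does not show that the other probe sets fell. The liver difference less the heart difference was -0.71 in females (adjusted p 0.00269), and the male value of -0.52 did not pass (adjusted p 0.0578, limma).

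Etfb read 10.07, 10.11 and 9.89 in WT female livers and 9.29, 9.41 and 9.14 in KO females, and 9.88, 9.87 and 9.85 in WT male livers and 9.09, 9.18 and 9.13 in KO males. The groups were apart in both sexes. It fell by 0.75 in female and fell by 0.73 in male liver (adjusted p 0.000723 and 0.000923, limma). In heart its average difference was -0.30 (adjusted p 0.0101 in limma), and without heart pools 4 and 10 it was -0.29 and no longer passed (adjusted p 0.082). Neither sex passed alone in heart. Etfa, the α subunit, differed by -0.20 in liver and -0.25 in heart and did not pass (adjusted p 0.0865 and 0.0817, limma).

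Coq3 read 6.29, 6.60 and 6.30 in WT female hearts and 5.45, 5.28 and 5.48 in KO females, and 6.69, 6.45 and 6.59 in WT male hearts and 5.44, 5.52 and 5.39 in KO males. The groups did not overlap. It fell by 0.99 in female and fell by 1.12 in male heart (adjusted p 6.15e-05 and 1.99e-05, limma). The mean of all Coq3 probe sets gave smaller differences, of -0.84 and -0.88, that also passed (adjusted p 0.000736 and 0.000508, limma). In liver it read 4.27 to 5.01 and its average difference of -0.23 did not pass (adjusted p 0.357). The liver difference less the heart difference was 0.83 in each sex (adjusted p 0.0104 in females and 0.0124 in males, limma).

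Cycs, cytochrome c, was lower in the average of the liver pools by 0.37 (adjusted p 0.0201 in limma). The call was lost on leaving out any 1 of male pools 1 to 5 (adjusted p 0.052 to 0.0652), with falls of 0.35 to 0.38, and neither sex passed alone. The mean of all Cycs probe sets gave a smaller average difference of -0.26 in liver, which passed (adjusted p 0.0302, limma). In heart Cycs differed by -0.06. The list's other genes for entry, glycerol 3-phosphate dehydrogenase Gpd2 and proline dehydrogenase Prodh among them, did not pass. In liver Gpd2 differed by -0.38 (adjusted p 0.219) and Prodh by 0.33 (adjusted p 0.0768, limma).

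**Figure D5:**
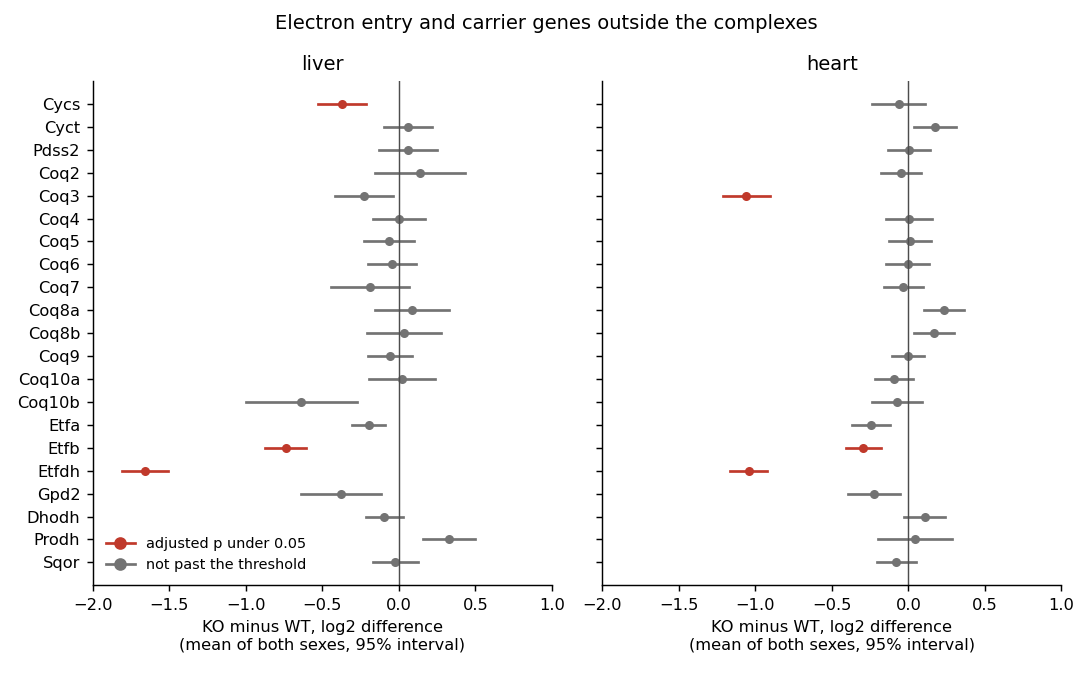
KO minus WT log2 difference (mean of both sexes, 95% interval) of the 21 measured electron entry and carrier genes in liver (left) and heart (right), red where the adjusted p was under 0.05. Etfdh is red in both tissues (-1.66 and -1.04), Coq3 in heart (-1.06), Etfb in both (-0.74 and -0.30) and Cycs in liver (-0.37).

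The remaining lists held few calls. Of 38 measured assembly factors outside the Nduf family, 0 were called in any comparison of KO with WT (0.401% to 1.36% of all genes). Their median differences were -0.06 in liver and 0.017 in heart. In the averages over the sexes, 5 of 38 had an unadjusted p under 0.05 in each tissue in limma. The shares of all genes there were 10.5% in liver and 7.81% in heart. Of 14 citric acid cycle genes, 0 were called in any of the same comparisons, with 5 of 14 at an unadjusted p of 0.05 in the liver average, where 10.5% of all genes were, and 0 of 14 in the heart average (7.81%). Dld, the shared dehydrogenase of the 2-oxo acid complexes, was the lowest of them in liver at -0.40 and Idh2, the NADP-dependent isocitrate dehydrogenase, the highest at 0.38. Of 20 regulators of mitochondrial biogenesis, 0 were called either, with 2 of 20 unadjusted in liver (10.5% of all genes) and 1 in heart (7.81%). Of 13 carrier and uncoupling genes 1 fell in heart, where 0.533% of all genes were called in females and 0.885% in the average. This was Ucp3, an uncoupling protein homologue of muscle and heart, at -0.64 in females (adjusted p 0.0403 in limma), a call that was lost under 8 of 16 alternatives with differences of -0.73 to -0.56. It was -0.49 in males, which did not pass (adjusted p 0.217, limma), and -0.56 in the average of both sexes (adjusted p 0.00443). The mean of all Ucp3 probe sets gave a smaller heart average of -0.39, which passed (adjusted p 0.0089, limma).

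Simulated shifts were used to gauge what the tests could find. The shifted genes were drawn from all 18193, most of them dim, and noise was drawn for each gene apart. The members were mostly brighter and moved together on some arrays, so the shares recovered are not those of the members. In simulated data built on these arrays, a shift of 0.5 was recovered in 65% of shifted genes for female liver, 51% for male liver, 58% for female heart and 57% for male heart, and a shift of 1 in 97%, 98%, 99% and 97%. For the averages over the sexes a shift of 0.5 was recovered in 85% in liver and 89% in heart. For the test between the sexes it was 17% in liver and 24% in heart, so differences of that size between females and males would mostly have been missed. For the test of liver against heart it was 24% in females and 20% in males. Differences of 0.5 between the tissues would therefore mostly have been missed too. Without heart pools 4 and 10, the members again gave 0 calls in each heart comparison, with differences of -0.20 (Ndufa3) to 0.11 (Ndufaf6) in the average of both sexes. In the same reduced limma fits the heart averages were -1.03 for Etfdh (adjusted p 1.95e-06), -1.07 for Coq3 (adjusted p 1.33e-05) and -0.54 for Ucp3 (adjusted p 0.0329), while Ucp3 in females no longer passed (-0.56, adjusted p 0.259).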

How the data were processed

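RNA of livers and hearts was hybridised to 24 Affymetrix arrays. Per the submitters' processing notes the authors used RMA; neither a version nor a genome build is given in the sources used here. The deposited values are log2 intensities. Sorted values of arrays of a tissue differed by 0.0038 to 0.0777 on average and those of different tissues by 0.65 to 0.684, as in tissues normalized apart, so levels were not compared across tissues.

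Of 45101 probe sets, 34945 had a single gene in the probe table; 932 with several genes, 9160 with none and 64 controls were not used. The brightest single-gene probe set over all arrays represented each of 18193 genes, with no filter on dim genes. Members had 180 single-gene probe sets, 51 members had more than 1, and 20 were represented by an _s_at or _x_at probe set, which can bind related transcripts. Cox7b had no single-gene match and was not analysed here.

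Cell-means models were fitted with limma 3.58.1 in R 4.3.3 (eBayes, two-sided, 12 comparisons, Benjamini-Hochberg over all genes, threshold 0.05), on 12 arrays per tissue, or all 24 for tissue by genotype. Genes named were members past the threshold (at most 12 in each direction), the highest and lowest of each complex, a set of catalytic, isoform and X-linked subunits, and list genes past the threshold (at most 6 per list). Others named (Cox8c, Gpd2, Prodh, Dld, Idh2 and the neighbours of Cox6b2) were chosen after their values were seen. Etfa, named beside Etfb, also lay outside these rules, as it passed in neither tissue. The members and lists were chosen with earlier results of these data known. Pairing of liver and heart pools by number was checked over their deviations from group means: correlations were -0.196 to 0.105 over 12 numbers, 1 of them over 0.1. Such correlations cannot show whether the animals were shared. The main fits did not take the numbers as pairs, and a replicate block by number was an alternative. The script was tested on simulated data with shifts of 0.5 and 1. Alternatives were another set of arrays in the fit, a variance with trend and robust fitting, weights for arrays, a second quantile normalization, median centring, a filter on dim genes, other choices of probe set, a replicate block and arrays left out. The number of arrays limits the precision, and p-values measure the spread between pools of animals.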

Additional observations from a re-analysis of the deposited data

Results flagged for a closer look

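Cox6b2 is listed because its KO difference passed limma's test of liver against heart. Taken as liver less heart, the differences stood apart by -1.58 in females (adjusted p 0.000449) and -1.23 in males (adjusted p 0.00902, limma). Over 22 alternatives in each sex the values ran from -1.82 to -1.29 in females and from -1.35 to -1.07 in males. The mean heart level of 3.08 lay beside the heart median of 3.03, so a fall in heart could hardly have been seen, and these values do not show that the response differed between the tissues.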

How the results depend on the processing

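Of 231 counts of called members recomputed under the alternatives, 227 equalled the reported count. In female liver the count of 1 became 0 with only the compared arrays. In male liver it ranged from 0 to 1 when each pool was left out in turn, with 0 without WT pool 1 or KO pool 5; fewer arrays were then fitted. In heart, averaged over the sexes, the count of 0 became 1 (Ndufa3) with a trended and robust variance; the cause was not tested. No named gene that was called reversed its sign in these alternatives. With the pool number as a replicate block over the tissues, the tissue-by-genotype count remained 1 in females and 1 in males, Cox6b2 in each (adjusted p 0.00158 and 0.0171, limma), and the block changed no other call among the members. By the labels the liver and heart samples of a pool share a number, and whether they share animals was not stated. A pool's heart array was its best match within the group in 4 of 12 cases, which cannot decide this. Cox6b2 kept an adjusted p of 3.71e-09 to 0.000666 in the liver average over 20 alternatives, of 8.66e-07 to 0.0545 in female liver and of 1.12e-05 to 0.0502 in male liver. Chosen after seeing the data, a test of every single-gene probe set called 1 of 180 in each liver comparison of KO with WT, Cox6b2 (0.429% to 0.933% of all probe sets). In heart it called 0 of 180 in each (0.306% to 0.604%). In the heart average 4 of 180 passed unadjusted in limma, and the share of all probe sets that did is not given here. Without liver pool 12, also chosen then, the entry list had 4 genes lower and 1 higher in the liver average, in place of 3 and 0. Signal over background limits the dim members, among them Cox6b2 in heart. In liver Cox6b2 was not dim by its mean over both genotypes, but every KO liver lay below the limit of 3.45.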
